A study of Mus musculus with 27 samples.

Results

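The late neutrophil genes S100a8, S100a9, Ngp, Camp, Ltf, Stfa1 and Lcn2 are 7 of the 24418 entries of the deposited expression table, found there by their gene symbols. They were chosen by their FPKM in these same libraries across the groups, so those levels and the differences between groups are given as a description and without a test. Expression was measured by bulk RNA sequencing of haematopoietic stem and progenitor cells (HSPCs), the immature cells that give rise to the blood lineages, from C57BL/6 mice, a standard inbred strain. The 27 libraries form 9 groups of 3, named as in the labels. The embryonic groups, with the embryonic day after the E, are E12.5 PL and E12.5 FL and, later, E16.5 FL. Perinatal BM is followed by marrow of mice aged 1, 3, 4, 6 or 8 weeks, called 1w BM to 8w BM. FL and BM usually stand for fetal liver and bone marrow, while the labels leave PL without an expansion. The labels name no treatment and no engineered allele in any group. How the cells were purified, whether animals were pooled, their sex and the exact perinatal day are not stated in the labels. Nothing says that the 3 libraries of a group came from separate animals, so the p-values rest on the spread among these libraries only, and that spread may be technical.

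Neutrophil granules are filled in a fixed order as the cell matures. Proteins of the primary granules, such as the peroxidase Mpo and the proteases Elane, Prtn3 and Ctsg, are made first, in promyelocytes. Those of the specific granules, among them lactoferrin (Ltf), the siderophore-binding lipocalin Lcn2, the cathelicidin Camp and the cystatin-like protein Ngp, follow in myelocytes. S100a8 and S100a9 pair into calprotectin, which binds calcium and zinc and fills the cytosol of neutrophils. Stfa1 belongs to the stefin A family of mouse inhibitors of lysosomal cysteine cathepsins. The transcription factor Cebpe is required for specific granule genes, Gfi1 and Cebpa act in granulocyte commitment, and Csf3r is the receptor of the granulocyte growth factor G-CSF.

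In the GRCm38 annotation, S100a8 (chr3:90668978-90670035, plus strand) and S100a9 (chr3:90692632-90695721, minus strand) lie 22.6 kb apart, with no protein-coding gene between them. Camp (chr9:109847379-109849617, minus strand), Ngp (chr9:110419747-110423012, plus strand) and Ltf (chr9:111019271-111042767, plus strand) share chromosome 9, 570.1 kb and 596.3 kb apart with 8 and 20 protein-coding genes in the gaps. Stfa1 (chr16:36276951-36285373, plus strand) is 1 of 10 stefin A genes within 335.4 kb, and Lcn2 (chr2:32384633-32388252, minus strand) stands alone. All are protein-coding genes. Of the 568 windows of 50 bases in the Stfa1 transcript, 26.9% also occur in another gene, mostly BC100530, so reads of these stefin genes can be shared and each of their values is uncertain. No such window was shared for the other 6 members.

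Because all 7 genes were higher in E16.5 FL than in E12.5 FL, the 150 bases before the start of 5 of them are printed, from RefSeq (GRCm38.p6), where all 7 members were found. They are written 5′ to 3′ on the strand of the gene, and capitals mark matches to letters often given for the factors C/EBP (TTGCNNAA) and PU.1 (GAGGAAG) and for the TATA box (TATAAA), searched on both strands. The annotation used for the positions above starts 6 of the 7 genes further upstream, so parts of the S100a8, Ngp and Ltf windows and the whole of the Stfa1, Camp and Lcn2 windows lie within its gene bounds.
S100a8, chr3:90668921-90669070, plus strand: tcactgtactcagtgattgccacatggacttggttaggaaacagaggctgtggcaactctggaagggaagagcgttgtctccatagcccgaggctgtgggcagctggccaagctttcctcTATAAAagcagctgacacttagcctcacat
S100a9, chr3:90695722-90695871, minus strand: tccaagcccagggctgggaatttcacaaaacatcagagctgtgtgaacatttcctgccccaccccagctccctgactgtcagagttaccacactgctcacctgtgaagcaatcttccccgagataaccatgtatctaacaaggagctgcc
Ngp, chr9:110419658-110419807, plus strand: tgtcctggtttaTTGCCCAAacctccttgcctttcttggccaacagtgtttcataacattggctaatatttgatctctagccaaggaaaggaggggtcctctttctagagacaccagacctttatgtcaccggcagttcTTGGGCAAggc
Ltf, chr9:111019142-111019291, plus strand: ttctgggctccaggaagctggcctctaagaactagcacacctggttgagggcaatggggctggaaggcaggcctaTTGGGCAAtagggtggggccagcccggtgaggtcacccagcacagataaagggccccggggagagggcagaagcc
Stfa1, chr16:36276998-36277147, plus strand: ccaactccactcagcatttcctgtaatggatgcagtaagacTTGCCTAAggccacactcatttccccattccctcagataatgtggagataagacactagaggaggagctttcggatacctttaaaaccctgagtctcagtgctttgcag
The C/EBP letters occurred in 3 of the 7 windows, with 2 matches in Ngp, 1 in Ltf and 1 in Stfa1, against 5.46% of 32851 promoter windows of the same length. The TATA letters occurred in S100a8 alone among the members (7.57% of all windows), and the PU.1 letters in Lcn2 alone (6.85%), whose window is not shown. No member window held matches to more than 1 of these motifs. A match describes the letters and does not show a bound site, and a missing match says only that the letters are not in this window.

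Values were deposited as FPKM, fragments of a transcript scaled by its length and by the size of the library, so levels of different genes can be set side by side per length, while the counts behind them are unknown. From the steps between the lowest values, relative depth (the median library being 1) ranged from 0.68 to 1.65, with the 3 E12.5 FL libraries the deepest (1.46 to 1.65). The progenitor marker Kit had group means of 117 to 179 FPKM outside E12.5 PL and 62.7 in it. E12.5 PL stood apart: Ptprc, the pan-leukocyte antigen CD45, was at 7.91 ± 2.79 FPKM (SD, n = 3) there and at 62.8 to 77.9 elsewhere, and the 5 trophoblast and epithelial markers summed to 2496 to 2915 there and to at most 108.5 in any other library. Retnlg and Mmp8, markers of mature neutrophils, had group means of at most 0.565 and 0.663 FPKM. Of the same list, Cxcr2 was at 5.78 ± 0.998 in E12.5 FL and Il1r2 at 7.94 ± 2.52 in Perinatal BM. These 4 markers summed to 2.67 to 12.4 FPKM per library. Ly6g, also on that list, was not found among the entries by its symbol.

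S100a8 had the highest mean level of the 7 members in each of the 7 groups from E16.5 FL on. The 3 libraries stood at 0.951, 1.24 and 2.68 FPKM in E12.5 FL and at 381, 203 and 145 in E16.5 FL. They were at 440.4, 257 and 90.5 in Perinatal BM and at 407, 339 and 608 in 1w BM. These 3 groups overlapped each other and lay above every other library. Levels then stood at 24.7, 32.9 and 24.4 in 3w BM and at 2.56, 4.40 and 4.32 in 4w BM, without overlap. The means of 6w BM (9.06 ± 2.40), 8w BM (6.52 ± 2.83), E12.5 PL (4.42 ± 3.42) and 4w BM (3.76 ± 1.04) each overlapped the next in that order. As in all bulk samples, fewer cells that carry a transcript and less of it per cell cannot be told apart here.

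S100a9, the partner of S100a8 in calprotectin, followed the same course at lower levels. It was at 162, 82.0 and 63.6 FPKM in E16.5 FL, at 191, 144 and 35.7 in Perinatal BM and at 114, 126 and 178 in 1w BM. The 3w BM libraries were at 5.36, 6.10 and 7.82, and the 9 libraries of 4w to 8w BM at 1.06 to 5.40. Of the 6 E12.5 libraries 3 were listed at 0, and the highest was at 4.72. Over the 27 libraries, which share the group structure, the log2 levels of S100a8 and S100a9 had r = 0.977, the highest of the 21 pairs of members, and S100a8 and Ltf had the lowest, 0.587.

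**Figure D1:**
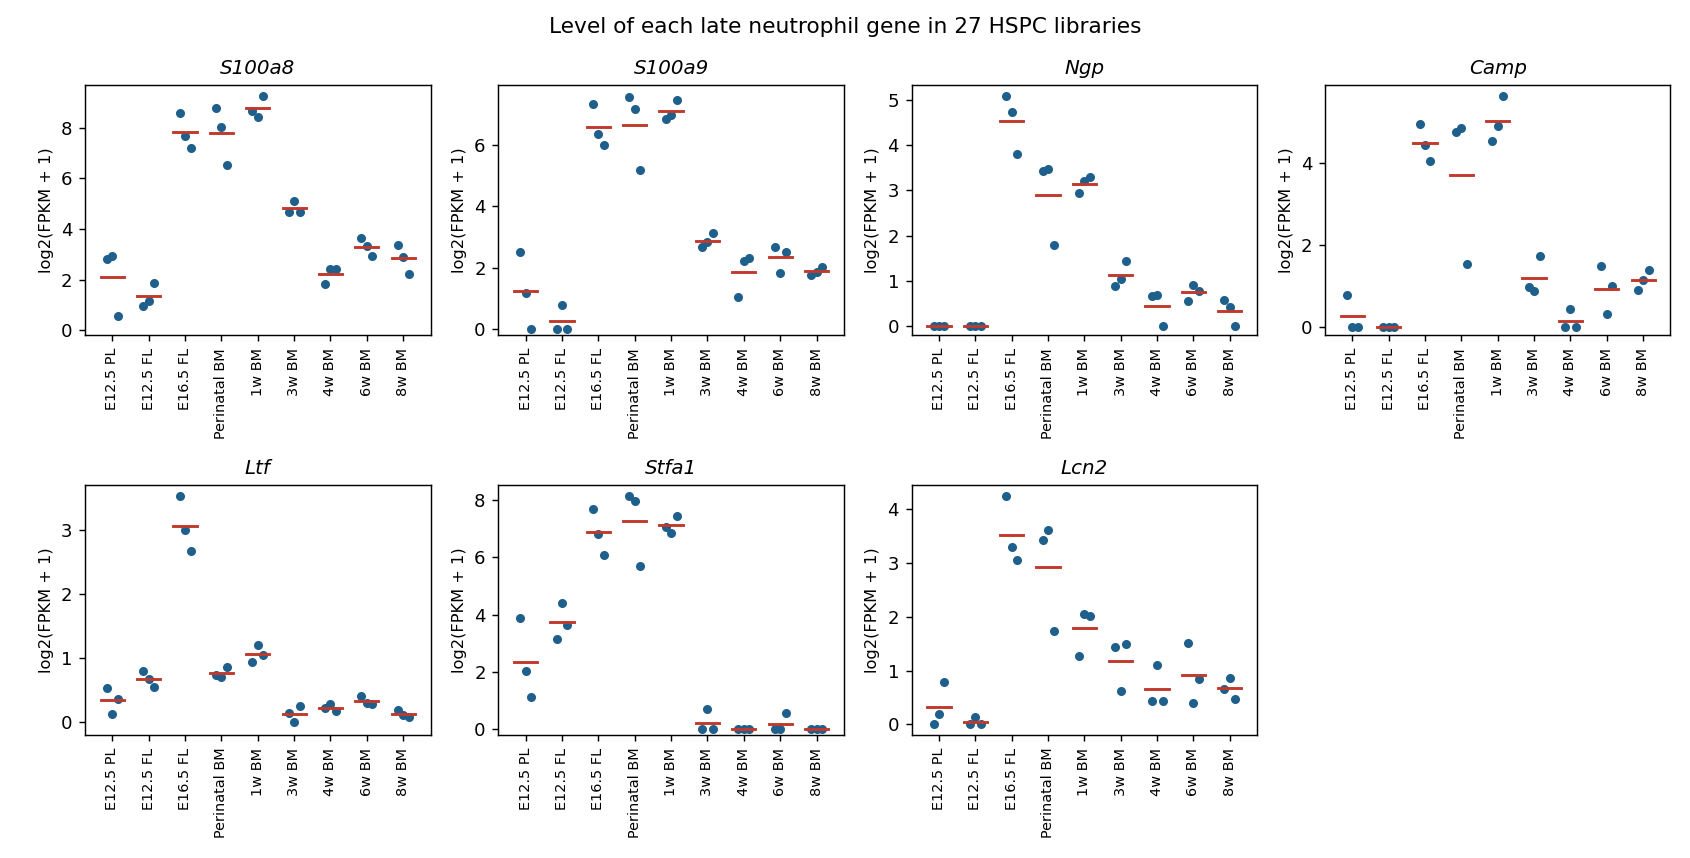
Level of each member on the log2(FPKM + 1) scale (vertical axis) in the 3 libraries of each of the 9 groups (points, horizontal axis), with the mean of the log2 values as a red line. All 7 genes are high in E16.5 FL, 6 stay high in Perinatal BM or 1w BM, and Ltf is above 2 FPKM in E16.5 FL libraries alone.

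Among the specific granule genes, Ngp was highest in E16.5 FL, at 32.7, 25.7 and 12.9 FPKM. It stood at 9.84, 10.01 and 2.46 in Perinatal BM and at 6.67, 8.22 and 8.80 in 1w BM, all below E16.5 FL. The gene was listed at 0 in all 6 E12.5 libraries, although those of E12.5 FL were the deepest, and no library from 4w BM on exceeded 0.877. The 3w BM libraries, at 0.847 to 1.72, overlapped 6w BM.

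Camp, the precursor of the antimicrobial peptide CRAMP, was highest in mean in 1w BM. Its libraries were at 30.2, 20.9 and 15.7 FPKM in E16.5 FL, at 26.25, 27.75 and 1.89 in Perinatal BM and at 22.05, 28.95 and 48.35 in 1w BM, and the 3 groups overlapped. In 3w BM it was at 0.983, 0.826 and 2.34, which overlapped the third Perinatal library. Of the 6 E12.5 libraries 5 were listed at 0, as were 2 of 3 in 4w BM.

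Ltf, which sequesters iron, was high in a single group. It stood at 10.55, 7.03 and 5.34 FPKM in E16.5 FL and at no more than 1.29 in any of the other 24 libraries. Perinatal BM was at 0.673, 0.625 and 0.822 and 1w BM at 0.911, 1.29 and 1.06. The order of the highest 3 groups, E16.5 FL, 1w BM and Perinatal BM, came without overlap. E12.5 FL (0.605 ± 0.140) overlapped Perinatal BM, and all 12 libraries from 3w BM on were at or below 0.325.

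Lcn2, which withholds iron from bacteria by binding their siderophores, was highest in E16.5 FL in mean. Its libraries were at 18.0, 8.81 and 7.31 FPKM in E16.5 FL, at 9.85, 11.32 and 2.32 in Perinatal BM and at 1.42, 3.15 and 3.06 in 1w BM. Each of the neighbouring groups in that order overlapped. In 3w BM the libraries at 1.70, 0.541 and 1.81 still overlapped 1w BM, and the means of 4w to 8w BM lay between 0.597 and 0.990.

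Stfa1 had the highest mean level of the members in both E12.5 groups. It was above 0 in all 6 E12.5 libraries, at 13.6, 3.08 and 1.2 FPKM in E12.5 PL and at 7.86, 20.1 and 11.6 in E12.5 FL. It stood at 206, 111 and 67.5 in E16.5 FL, at 278.5, 251 and 51.2 in Perinatal BM and at 132, 114 and 175 in 1w BM, which overlapped. Of the 12 libraries from 3w BM on, 10 were listed at 0 and the others, 3w BM 2 and 6w BM 3, were at 0.618 and 0.480. Below 1 FPKM an entry of 0 may reflect depth, which is unknown in counts.

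The stefin A genes near Stfa1 given here were, like Stfa1, low from 3w BM on. BC100530 and Gm5483 also had their highest means in Perinatal BM, whereas Stfa3 was lower there than in E16.5 FL. Of the 50-base windows of the Gm5483 transcript, 35.6% also occur in another stefin A gene, 2010005H15Rik. BC100530 was at 123, 69.0 and 49.8 FPKM in E16.5 FL, at 148, 182 and 22.8 in Perinatal BM and at 60.04, 65.97 and 88.8 in 1w BM, but at no more than 1.07 from 3w BM on. Gm5483 had means of 37.7 ± 20.3, 39.7 ± 30.4 and 21.3 ± 5.75 in the same groups and was listed at 0 in all 6 libraries of 3w and 4w BM. Stfa3, whose transcript shares no 50-base window with another gene, was at 14.6 ± 5.03, 4.48 ± 2.29 and 2.24 ± 0.688, and listed at 0 in all 12 libraries of 3w to 8w BM. Cstb, the stefin B gene on chromosome 10, had group means between 32.9 and 41.2 outside E12.5 PL. Thus Stfa1 was 1.93 to 5.05 times as high as Cstb per length within the E16.5 FL libraries and at most 0.0189 times as high within those of 3w BM.

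**Figure D2:**
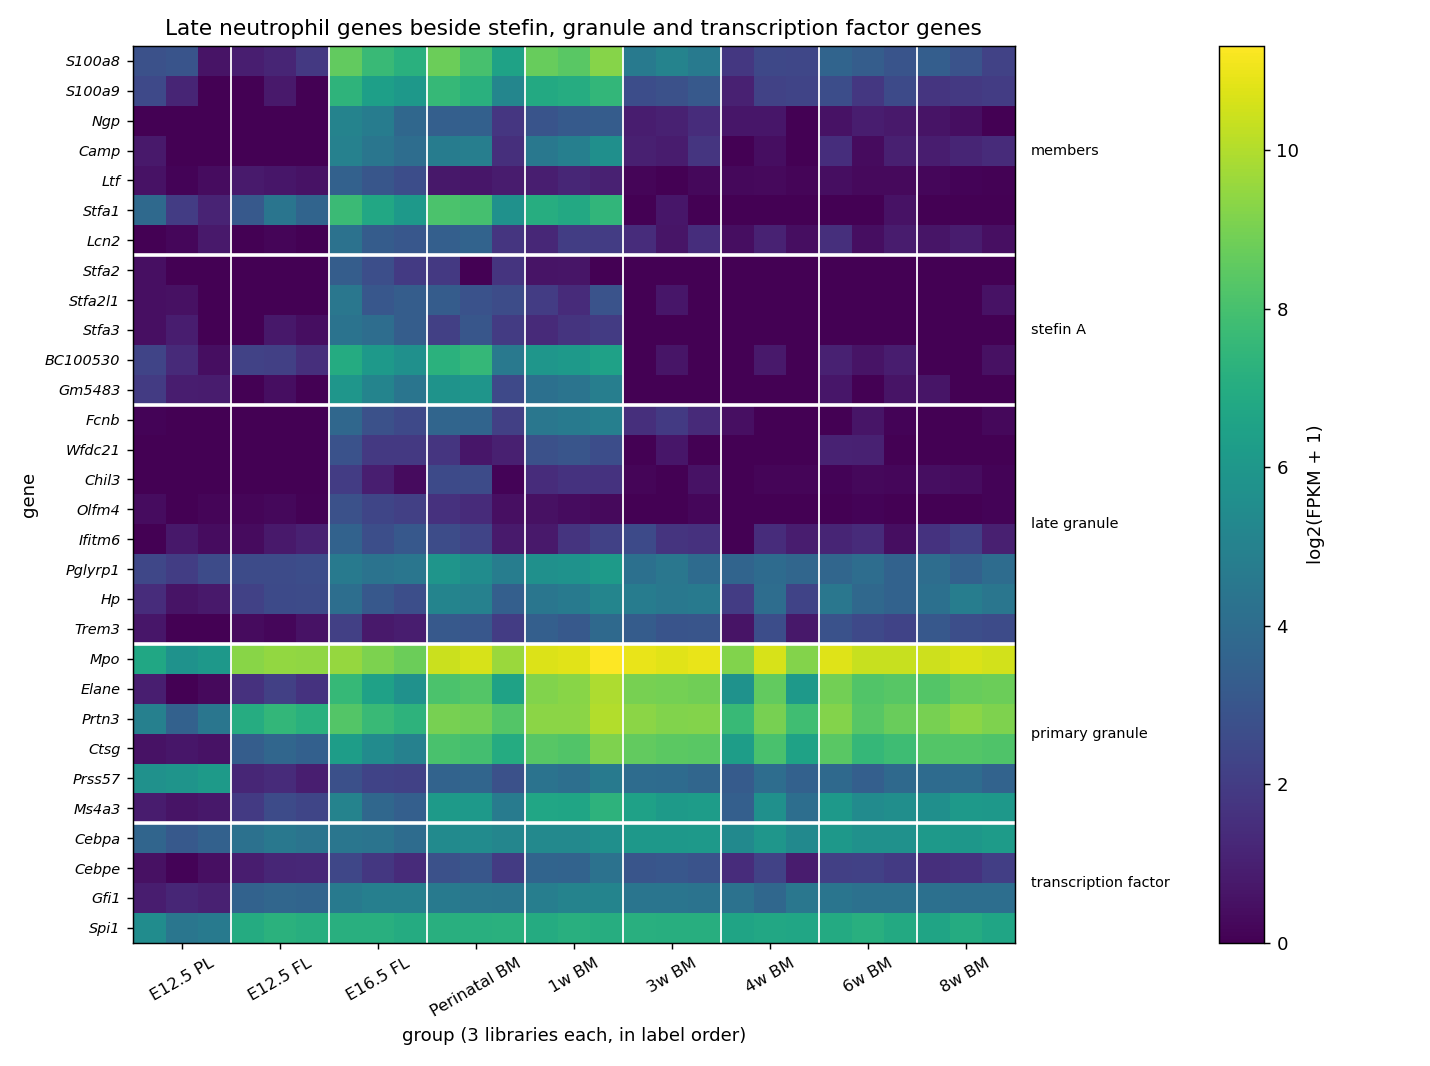
Heat map of log2(FPKM + 1) (colour) for the 7 members and for stefin A, late granule, primary granule and transcription factor genes (rows) in the 27 libraries, 3 per group in the order of their numbers (columns). Most members and stefin genes are brighter from E16.5 FL to 1w BM than afterwards, while primary granule genes such as Mpo stay bright to 8w BM. Ltf is bright in E16.5 FL alone, and S100a8 still has a mean of 27.3 FPKM in 3w BM.

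Differences between successive groups are means of log2(FPKM + 1) with their SE, a scale that understates changes at low levels. Neighbouring comparisons share a group and so its libraries. The filter for testing was 1 FPKM or more in 3 or more libraries. Ngp, with 11 such libraries, and Ltf, with 5, passed it only through the groups in which they are high. S100a8 (25 libraries), S100a9 (23), Stfa1 (15), Camp (14) and Lcn2 (13) would also pass through other groups. All 7 members thus passed. Beside them, 93 companion genes of 8 lists were followed (granulocyte transcription factors, primary granule genes, other late granule and secreted genes, NADPH oxidase subunits, neutrophil surface receptors, receptors and targets of the members, stefins and other S100 genes), of which 71 could be tested. A companion was called higher or lower when limma, fitted to all 27 libraries and 13350 genes, gave an adjusted p under 0.05. The companion and marker lists were also chosen with earlier results of these data known. Their counts beside the share over all genes are therefore a description and no independent support.

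From E12.5 PL to E12.5 FL most members overlapped. Only Ltf had libraries without overlap, higher in FL (1 of 7 members, against 34.4% of all genes tested higher without overlap and 41.9% lower). Its levels were under 1 FPKM in both groups, at 0.469 to 0.749 in FL and 0.0958 to 0.455 in PL. S100a8 differed by -0.78 ± 0.82 and S100a9 by -0.97 ± 0.77 on the log2 scale. Stfa1 differed by 1.39 ± 0.88, with 1 E12.5 PL library (13.6 FPKM) inside the range of E12.5 FL. Of the 71 companions, 28 were higher in FL and 22 lower, with 33.2% and 41% over all genes. Of the 22, 5 passed the filter only through E12.5 PL, so those calls carry no weight. All 6 NADPH oxidase subunits and 5 of 6 primary granule genes were higher, among them Mpo (675 ± 45.2 against 74.3 ± 27.6 FPKM) and Rac2 (169.5 ± 9.93 against 20.3 ± 6.40). Trophoblast and epithelial markers were high in E12.5 PL, as given above, and the part of such cells in these differences was not tested.

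Between E12.5 FL and E16.5 FL all 7 members were higher without overlap, where 28.4% of all genes tested were higher without overlap and 24.5% lower. This comparison was among those by which the genes were chosen, so nothing is read from that count. S100a8 and S100a9 differed by 6.48 ± 0.49 and 6.32 ± 0.47 on the log2 scale, Ngp and Camp by 4.54 ± 0.38 and 4.49 ± 0.26 from groups listed at 0, Lcn2 by 3.49 ± 0.37, Stfa1 by 3.13 ± 0.59 and Ltf by 2.39 ± 0.26. Companions moved mostly the same way: 34 of 71 rose and 6 fell, against 19% and 15.6% of all genes, with a median difference of 0.62 against 0.01 over all genes tested.

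The companions that rose at E16.5 included 5 of 7 stefin genes, 9 of 15 other late granule and secreted genes and 4 of 6 primary granule genes. Elane rose from 2.54 ± 0.792 to 109 ± 70.8 FPKM (adjusted p = 9.80e-07), and Fcnb, a ficolin stored in granules, from values listed at 0 to 7.78 ± 4.41 (adjusted p = 2.94e-07). Olfm4, which marks a subset of specific granules, stood at 0.119 ± 0.0711 and 4.52 ± 1.31. It and Stfa2 are the 2 of the 34 called higher here that passed the filter only through E16.5 FL, so their calls carry no weight. Cebpe, needed for specific granule genes, was at 1.2 ± 0.268 and 2.80 ± 1.35 and did not pass the test (adjusted p = 0.0585), whereas Gfi1 rose from 11.6 ± 0.870 to 26.7 ± 3.08 (adjusted p = 1.15e-06). Genes of the mature cell surface moved the other way: Cxcr2, the chemokine receptor of circulating neutrophils, fell from 5.78 ± 0.998 to 1.11 ± 0.352 (adjusted p = 2.45e-06), Itgam from 19.0 ± 1.14 to 11.6 ± 0.456 and Fcgr3 from 20.5 ± 1.08 to 9.11 ± 2.94. The smaller falls of Cebpd and Csf3r lost their call when single libraries were left out (highest adjusted p = 0.0834 and 0.0872), and the count of 6 fell to 3 without E12.5 FL 2, E12.5 FL 3 or E16.5 FL 2.

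Receptors and targets of the member proteins were measured in the same cells. Of 11 tested, 5 rose at E16.5 and none fell. The stefin targets Ctss and Ctsh, cysteine cathepsins, rose from 3.40 ± 0.892 to 13.5 ± 1.46 and from 0.781 ± 0.294 to 6.63 ± 1.63 FPKM. Slc22a17, a receptor proposed for Lcn2, rose from 3.85 ± 0.0304 to 6.30 ± 0.411. Tlr4, a receptor of calprotectin, was at 0.647 ± 0.263 and 1.33 ± 0.230 and did not pass (adjusted p = 0.0558). Lrp2, an endocytic receptor for Lcn2, had means of 0.00293 and 0.00710 in the same groups, under the filter for testing.

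At E16.5 markers of other lineages also stood higher. All 6 B lineage markers rose, with sums of 37.5 to 155 FPKM per library against 1.41 to 1.96 at E12.5, where Pax5 was listed at 0. The mature neutrophil markers in the table (4 of 5) summed to 3.48 to 12.4 at E16.5 and to 9.24 to 11.02 at E12.5, where Retnlg was listed at 0. Of 5 erythroid markers tested 3 rose, with sums of 44.0 to 67.7 against 6.63 to 28.7. Monocyte and macrophage markers rose in 5 of 8 cases, with sums of 52.1 to 61.3 against 31.3 to 37.0. Of the eosinophil, basophil and mast cell markers 3 of 6 rose and 1 fell, with sums of 22.5 to 46.5 against 23.7 to 28.6, and Cma1 was listed at 0 at E12.5. The part of such cells in the members' levels was not tested.

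From E16.5 FL to Perinatal BM the members divided. Ngp and Ltf were lower without overlap (2 of 7 members lower and 0 higher, against 19.3% and 18.7% of all genes), by -1.64 ± 0.67 and -2.30 ± 0.26 on the log2 scale. S100a8 and S100a9 differed by -0.04 ± 0.78 and 0.07 ± 0.84, Stfa1 by 0.41 ± 0.91, Lcn2 by -0.60 ± 0.70 and Camp by -0.78 ± 1.12, and these 5 overlapped. The sign for Camp rests on Perinatal BM 3, without which the difference was 0.31.

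Companions were called higher in 21 cases and lower in 8, with 14.2% of all genes in each direction, and the lower count was 5 without E16.5 FL 1. Of the 8, Olfm4 and Stfa2 passed the filter only through E16.5 FL, so these 2 calls carry no weight. All but 1 of the 6 primary granule genes rose: Ctsg, a serine protease, went from 50.5 ± 25.2 to 212 ± 77.0 FPKM (adjusted p = 0.000201). Of these 5 calls 2 were kept without E16.5 FL 3 or without Perinatal BM 2, and 3 without Perinatal BM 1. With only the 6 libraries compared, Ctsg alone of the 5 kept its call. Of the stefin genes Stfa3 and Stfa2 were called lower, Stfa2 having passed the filter only through E16.5 FL. Stfa3 fell from 14.6 ± 5.03 to 4.48 ± 2.29 (adjusted p = 0.000111), and none of the 7 was called higher. Late granule genes went both ways, 4 higher and 4 lower of 15: Pglyrp1, an antibacterial granule protein, rose from 21.4 ± 2.96 to 43.1 ± 16.02, and Olfm4 stood at 4.52 ± 1.31 and 1.38 ± 0.881. Of the 4 lower calls 2 were kept without E16.5 FL 1. Cebpa rose from 18.3 ± 2.77 to 39.9 ± 3.77 (adjusted p = 1.75e-05). All 6 eosinophil, basophil and mast cell markers rose, summing to 843 to 2050 FPKM per library against 22.5 to 46.5, and all 6 B lineage markers fell to sums of 5.32 to 36.8; their part in the members' values was not tested.

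**Figure D3:**
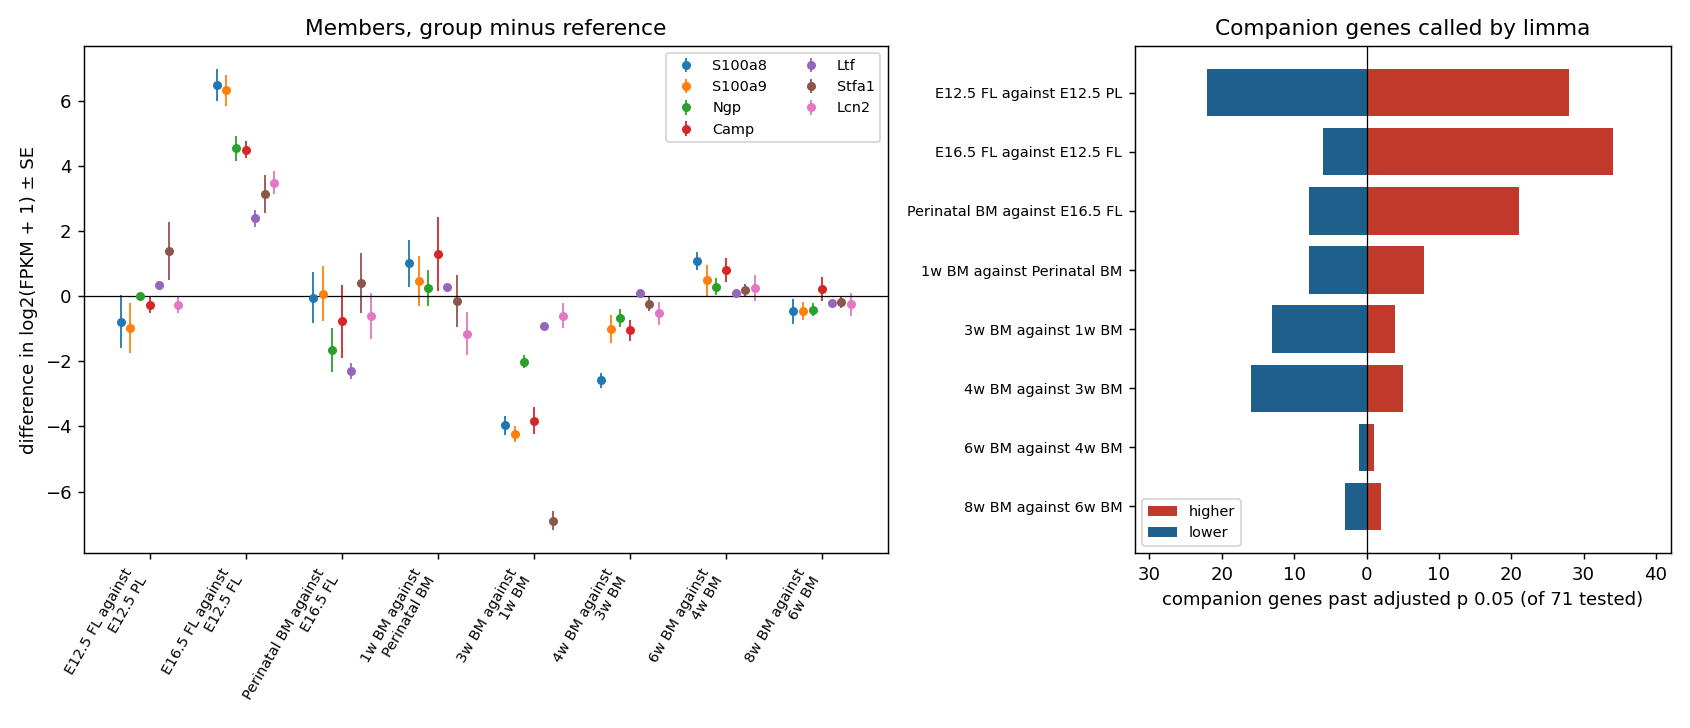
Left, the difference of each member between successive groups, group minus reference, in mean log2(FPKM + 1) with SE bars (3 libraries against 3). Right, the number of the 71 tested companion genes called higher (red) or lower (blue) by limma in the same comparisons. Members differ by 2.39 to 6.48 at E16.5 FL, Stfa1 by -6.89 in 3w BM, and no member by more than 1.08 from 6w BM on.

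Perinatal BM and 1w BM overlapped for 6 members. Ltf alone was higher in 1w BM without overlap, by 0.29 ± 0.09 (1 of 7, against 15.8% of all genes higher and 16.8% lower). Its levels were low, at 0.911 to 1.29 FPKM in 1w BM and 0.625 to 0.822 in Perinatal BM. The differences of S100a8 and Camp were 1.01 ± 0.71 and 1.30 ± 1.14, and that of Lcn2 was -1.15 ± 0.65. Without Perinatal BM 3, S100a9 and Ngp changed sign, from 0.45 to -0.27 and from 0.25 to -0.30. Companions were called 8 higher and 8 lower, against 8.6% and 8.97% of all genes, and 5 were higher without 1w BM 3.

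In 1w BM 4 of 15 late granule genes were called higher and 2 lower. Those that rose included Wfdc21, from 1.33 ± 0.916 to 6.07 ± 0.745 FPKM (adjusted p = 0.000203), and Fcnb, from 8.92 ± 4.802 to 24.6 ± 3.78 (adjusted p = 0.00200). The transcription factor Cebpe rose from 5.34 ± 2.14 to 13.6 ± 4.06 (adjusted p = 0.00581). Elane went from 226 ± 118 to 729.5 ± 220.4, a call lost without Perinatal BM 3 or without 1w BM 3. In a fit of only the 6 libraries compared, Cebpe, Fcnb and Elane lost their calls. With 0.1 in place of 1 added to the FPKM, Fcnb and Elane did so too. Wfdc21 kept its call under every alternative. Il1r2, a decoy receptor of mature neutrophils, fell from 7.94 ± 2.52 to 1.11 ± 0.732 (adjusted p = 0.000588).

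Between 1w BM and 3w BM 6 of 7 members were lower without overlap and none higher, against 17.3% and 17.4% of all genes; as at E16.5, the choice of members used this comparison. Stfa1 differed by -6.89 ± 0.29 on the log2 scale, S100a9 by -4.23 ± 0.24, S100a8 by -3.97 ± 0.28, Camp by -3.82 ± 0.42, Ngp by -2.02 ± 0.20 and Ltf by -0.93 ± 0.11. Lcn2 differed by -0.60 ± 0.38 and overlapped. In FPKM, the mean of S100a8 went from 451 to 27.3 and that of Camp from 33.1 to 1.38.

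None of the 6 primary granule genes was called in this comparison (limma; 0 higher and 1 lower at an unadjusted p under 0.05), and Mpo was at 2012 ± 463 FPKM in 1w BM and 1922 ± 104 in 3w BM. Of 71 companions 13 fell and 4 rose, against 4.76% and 5.69% of all genes, and the 4 became 2 without any of 1w BM 1, 1w BM 3 and 3w BM 1, 2 or 3. Stefin genes (4 of 7) and other late granule genes (7 of 15) made up 11 of the falls. Of the 7 late granule calls 4 were kept without 1w BM 3 or without 3w BM 1. BC100530 fell from 71.6 ± 15.2 to 0.181 ± 0.314 (adjusted p = 2.01e-07), Fcnb from 24.6 ± 3.78 to 2.06 ± 0.658 (adjusted p = 1.08e-06), Wfdc21 from 6.07 ± 0.745 to 0.197 ± 0.340 (adjusted p = 1.44e-06) and Pglyrp1 from 58.1 ± 11.5 to 17.6 ± 3.47 (adjusted p = 2.42e-05). Gfi1 fell from 31.1 ± 3.34 to 19.7 ± 0.604, while Cxcr4, the chemokine receptor that holds neutrophils and progenitors in marrow, rose from 44.9 ± 8.52 to 119 ± 19.6 (adjusted p = 0.000588). The sum of the mature neutrophil markers was 2.67 to 4.65 FPKM in 1w BM and 5.52 to 8.22 in 3w BM. Of the eosinophil, basophil and mast cell markers 3 of 6 fell, among them Prg2, from 33.4 ± 17.2 to 6.17 ± 1.28. The sum of the 6 was 72.7 to 144 in 1w BM and 69.9 to 75.0 in 3w BM. Of the monocyte and macrophage markers 3 of 8 rose, and of the B lineage markers 2 of 6. The part of these cells in the members' levels was not tested.

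From 3w BM to 4w BM S100a8, S100a9, Ngp and Camp were lower again without overlap (4 of 7 members lower, none higher, against 14.1% and 15.8% of all genes). The differences were -2.58 ± 0.24 for S100a8, -1.02 ± 0.43 for S100a9, -0.67 ± 0.28 for Ngp and -1.05 ± 0.31 for Camp. Stfa1 was already near or at 0 in both groups. Primary granule genes were called lower in the same step in 5 of 6 cases, but 0 of these calls were kept without 3w BM 1, 4w BM 1 or 4w BM 3: Elane was at 53.5, 391 and 65.8 FPKM in 4w BM against 471 to 512 in 3w BM. S100a8, at 2.56, 4.40 and 4.32, did not share the high value of the second library to that extent.

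Over the companions 16 were lower and 5 higher in 4w BM, against 4.56% and 4.72% of all genes. The counts depended on single libraries, with 4 lower without 4w BM 1, 6 without 4w BM 3 and 7 without 3w BM 1, and with 1, 2, 2 and 3 higher without 4w BM 1, 4w BM 3, 3w BM 1 and 3w BM 2. Calls that held when each library was left out included Cebpe, from 6.92 ± 0.485 to 2.10 ± 1.52 FPKM, Fcnb, from 2.06 ± 0.658 to 0.121 ± 0.209, Fcgr3, an Fc receptor, from 18.9 ± 1.13 to 7.17 ± 5.91, and Padi4, a histone-citrullinating enzyme of neutrophils, which rose from 11.2 ± 1.31 to 19.4 ± 2.84. Each of these lost its call in a limma fit of only the 6 libraries compared (adjusted p = 0.0915, 0.0566, 0.137 and 0.0647). The call of Cxcr4, lower in 4w BM, was kept under every alternative.

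In the older marrow the members stayed low, Ltf at no more than 0.325 FPKM in any library. From 4w BM to 6w BM S100a8 and Ltf were higher without overlap (2 of 7 higher, none lower, against 11% and 9.63% of all genes), S100a8 from 2.56 to 4.40 FPKM to 6.61 to 11.4 and by 1.08 ± 0.28 on the log2 scale. From 6w BM to 8w BM Ltf alone was lower without overlap (1 of 7 lower, none higher, against 13% and 13.4%), at no more than 0.325 FPKM in both groups. One companion was called in each direction in 6w BM (limma; 13 higher and 4 lower at an unadjusted p under 0.05), against 2.59% and 1.35% of all genes, and 9 were higher without 4w BM 2. In 8w BM 2 were higher and 3 lower, against 2.97% and 5.21%, the 2 becoming 1 without 6w BM 1, 8w BM 1 or 8w BM 2 and the 3 becoming 1 without 6w BM 2. Of the stefin genes none was called in either step (limma; 0 at an unadjusted p under 0.05 in both).

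Ratios within a library do not depend on how that library was scaled, and they set the members' order against each other. S100a9 stood at 0.403 to 0.438 times S100a8 in E16.5 FL, at 0.394 to 0.559 in Perinatal BM and at 0.281 to 0.370 in 1w BM. The narrow range in E16.5 FL held although S100a8 itself varied from 145 to 381 FPKM there. Stfa1 was 4.32 to 16.2 times as high as S100a8 in E12.5 FL, 0.465 to 0.545 times in E16.5 FL, 0.565 to 0.977 times in Perinatal BM and 0.288 to 0.337 times in 1w BM. Ngp was 0.822 to 1.23 times as high as Camp in E16.5 FL and 0.182 to 0.303 times in 1w BM, without overlap, while Perinatal BM spanned 0.361 to 1.30. Ltf was 0.586 to 0.799 times as high as Lcn2 in E16.5 FL, 0.0552 to 0.354 times in Perinatal BM and 0.348 to 0.642 times in 1w BM.

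Set against Elane, S100a8 was lower in each later group up to 3w BM. It was 2.03 to 2.84 times as high as Elane in E16.5 FL, 0.833 to 1.58 times in Perinatal BM, 0.544 to 0.698 times in 1w BM and 0.0482 to 0.0663 times in 3w BM, and none of these 4 ranges overlapped. In 8w BM the ratio was 0.00862 to 0.02996. Camp was 0.161 to 0.307 times as high as Elane in E16.5 FL, 0.0207 to 0.0943 times in Perinatal BM, 0.0378 to 0.0492 times in 1w BM and 0.00167 to 0.00497 times in 3w BM. The ratio of S100a8 to Mpo was 0.333 to 0.523 in E16.5 FL, 0.115 to 0.322 in Perinatal BM, 0.190 to 0.239 in 1w BM and 0.0123 to 0.0182 in 3w BM. In both of these ratios Perinatal BM spanned the range of 1w BM.

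**Figure D4:**
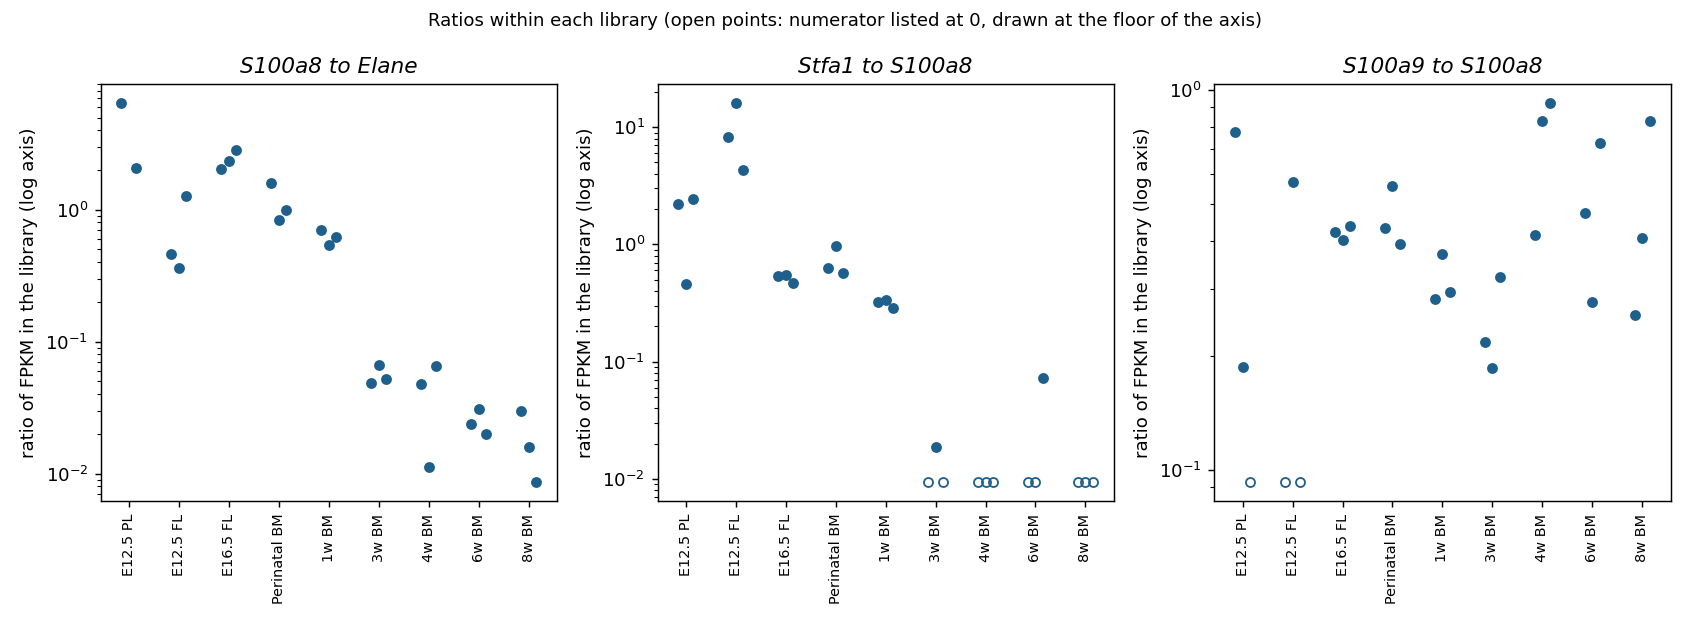
Ratio of FPKM within each library (vertical axis, log scale) of S100a8 to Elane, Stfa1 to S100a8 and S100a9 to S100a8 in the 9 groups; points are libraries, open points have the numerator listed at 0, and E12.5 PL 2, with Elane listed at 0, is not drawn in the first panel. The ratio to Elane is 2.03 to 2.84 in E16.5 FL and 0.0482 to 0.0663 in 3w BM.

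The order of the libraries within a group was the same for all 7 members in E16.5 FL and differed between members in the other groups. E16.5 FL 1 was the highest of its group for 7 of 7 members and E16.5 FL 3 the lowest for 7 of 7. Elane followed the same order, at 188, 87.2 and 51.0 FPKM, as did Ctsg, at 78.7, 42.5 and 30.3. In Perinatal BM the third library was lowest for 6 of 7 members and highest for Ltf. That library also had less Elane (91.1 against 279 and 309) and Prg2 (26.5 against 160 and 131), but more of the B lineage markers (36.8 against 5.32 and 6.17). In 1w BM the third library was highest for 5 of 7 members and for Elane (983 against 583 and 623). The part of these markers in the members' spread was not tested. Without Perinatal BM 3 the group mean of S100a8 was 349 in place of 263 FPKM, that of Stfa1 265 in place of 194 and that of Camp 27 in place of 18.6, and each of the 7 means moved by less than 1.5 times. Without Perinatal BM 1 the mean of S100a8 was 173.9, a move of over 1.5 times.

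Likeness to the members was ranked among tested genes whose highest group mean was 5 FPKM or more. Clone and predicted-gene names, such as BC100530 and Gm5483, were left out. The log2 levels most like the mean z-score of the 7 members over the 27 libraries were those of Stfa2l1 (r = 0.948), Stfa3 (0.923) and Fcnb (0.907). F5, Wfdc21, Zfp580, Prg2, Ddx19a, Ear6 and Gp9 followed at 0.871 to 0.80. The members themselves correlated with that score at 0.792 (Ltf) to 0.982 (Ngp), which includes their own values. Stfa2l1, Stfa3 and Fcnb again led over the 24 libraries without E12.5 PL (r = 0.950, 0.932 and 0.901), and Ppp1r2, Ldhb and Mapk13 entered the first 10. The levels of Prg2, an eosinophil granule gene, were 13.9 ± 4.62 FPKM in E16.5 FL, 106 ± 70.1 in Perinatal BM and 33.4 ± 17.2 in 1w BM, and so peaked later than those of Ltf and Ngp.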

How the data were processed

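The 27 libraries were made from total RNA extracted with Tri Pure reagent and prepared with an Illumina TruSeq RNA kit, per the labels' protocols. Trim Galore, FastQC, STAR 2.7, HTSeq 0.6.1p1 and the GRCm38 build are named in the submitters' processing notes. The authors deposited the values as FPKM per gene and library. For the FPKM step, the tool, annotation and scaling were not given in the sources used here, so the depth in counts is unknown and a value of 0 carries no limit of detection.

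The 7 members and the companion and marker lists were chosen with earlier results of these data known, so members have no test. Companion genes were tested on log2(FPKM + 1) with limma 3.58.1 in R 4.3.3, with 9 group means fitted to all 27 libraries (18 residual degrees of freedom, moderated variances with a trend), on the 13350 of 24418 entries that reached 1 FPKM in 3 or more libraries. P-values were adjusted by Benjamini and Hochberg over all tested genes within each of the 8 comparisons of successive groups, and the threshold was 0.05. Companions were named where up to 6 a direction passed with the largest differences, at least 5 FPKM in the higher group and no overlap of libraries. Olfm4, Gfi1, Ctss, Ctsh, Slc22a17, Tlr4 and Lrp2 were named outside that rule, after their values were seen. So were Cebpe at E16.5 and 4w, Pglyrp1 and Cebpa in Perinatal BM, Mpo in 3w BM, and Fcnb and Cxcr4 in 4w BM. The genes most like the members were the 10 with the highest Pearson correlation among tested genes whose highest group mean was 5 FPKM or more. Members and genes with clone or predicted-gene names were left out of that ranking. The SE of a member's difference comes from the libraries of both groups alone. Python 3.11.15 with numpy 2.4.6, pandas 2.3.3 and matplotlib 3.10.9 was used for the rest, and the fit was tested on simulated data. The alternatives were another pseudocount, other filters, another scaling, a fit of the 6 libraries compared, the replicate number as a block, and each library left out.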

Additional observations from a re-analysis of the deposited data

How the results depend on the processing

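The counts of companion genes called (of 71) were recomputed under 192 alternatives. Of the 96 that leave out no library, 78 stayed within 1.5 times the reported count. With only the 6 libraries compared, the counts were 4 lower in Perinatal BM (8 in the fit of all libraries), 1 higher and 4 lower in 1w BM (8 and 8), 1 higher and 1 lower in 4w BM (5 and 16), 0 and 0 in 6w BM (1 and 1) and 0 and 0 in 8w BM (2 and 3). With a pseudocount of 0.1, 5 were higher in 1w BM, 3 higher in 4w BM and 0 lower in 6w BM. With no filter, 2 were higher in 3w BM (4 with it), 3 higher in 4w BM and 0 higher and 0 lower in 6w BM, and with a filter of 5 FPKM 0 were higher in 6w BM. With single libraries left out, the counts higher and lower ranged from 23 to 28 and from 22 to 23 in E12.5 FL, from 29 to 35 and from 3 to 4 in E16.5 FL, from 16 to 26 and from 5 to 9 in Perinatal BM, from 5 to 8 and from 6 to 9 in 1w BM, from 2 to 3 and from 9 to 12 in 3w BM, from 1 to 5 and from 4 to 16 in 4w BM, from 0 to 9 and from 0 to 1 in 6w BM, and from 1 to 3 and from 1 to 4 in 8w BM. The cause was not tested, except that fits of fewer libraries have fewer degrees of freedom by construction. Of 70 calls of single companions named by the rule, 48 were kept whichever library was left out, 44 under every other alternative, and 0 reversed.

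The replicate numbers are shared between groups, but they did not pair the libraries: deviations of same-numbered libraries correlated at -0.21 to 0.13, and 8 of 27 libraries were closest to their own number. With the replicate block, 0 companions were higher in 6w BM (1 without it), and no other count moved by over 1.5 times. The 56 differences of members were recomputed 336 times with a library left out and stayed within 1 SD each time. With 3 libraries a group, leaving out 1 cannot move a difference further than that, so nothing is read from this count. Of 112 other recomputed differences 28 moved by more than 1 SD, all with the pseudocount of 0.1. Differences changed sign or became 0 in 19 cases, of which 1 had a reported difference over 0.5, that of Camp in Perinatal BM (-0.78, and 0.31 without Perinatal BM 3). Depth in counts is unknown, so levels under 1 FPKM are not resolved from 0.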

Other observations

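In E12.5 FL Stfa1 was higher than the stefin A neighbours given here in each library. In the 3 E12.5 FL libraries, at 7.86, 20.1 and 11.6 FPKM of Stfa1, BC100530 stood at 3.66, 3.41 and 1.88, Gm5483 at 0, 0.333 and 0, and Stfa3 at 0, 0.643 and 0.344. In E16.5 FL the ratio of Gm5483 to Stfa1 was 0.291 to 0.301 in all 3 libraries, in 1w BM 0.128 to 0.168, and in Perinatal BM 0.0908 to 0.236. E12.5 PL differed from E12.5 FL: there the ratio of Gm5483 to Stfa1 was 0.21 to 0.665, against at most 0.0166 in E12.5 FL. That of BC100530 to Stfa1 was 0.289 to 0.508 in E12.5 PL and 0.162 to 0.465 in E12.5 FL. Because Stfa1 and BC100530 share sequence, the split of reads between these genes by the authors' counting was not tested.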
